A study of Drosophila melanogaster with 18 samples.

Results

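The regions described here are the stretches of the X chromosome euchromatic arm that were listed in 3 deposited region tables from a DNA-RNA hybrid mapping study in Drosophila S2 cells. A region was taken where its chromosome was X and its midpoint lay below 21.5 Mb on the dm3 assembly, which leaves the pericentric end of the chromosome out. This gave 830 of 17192 listed entries, made up of 556 of 6477 in the LacZ table, 93 of 2980 in the hrp36 table and 181 of 7735 in the hrp48 table. The 3 tables are separate region lists of the same libraries, so 1 stretch of DNA can appear in up to 3 of them. At the border of the rule, the last LacZ-table region inside was chrX:21421817-21423997, with a log2 fold change of -0.68 in the authors' deposited table. The first outside was chrX:21511382-21512115, at -0.12 in the authors' deposited table.

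S2 is an established embryonic Drosophila cell line, and the labels also describe the cells as a primary culture from late-stage embryos. The study had 18 samples in 9 groups of 2. For each of 3 cell groups, labelled LacZ, hrp36 and hrp48, there was a 10% input, a DNA-RNA hybrid immunoprecipitation without RNase H (RNH-) and one after RNase H (RNH+). The 12 immunoprecipitated libraries stand behind the values below as 6 group means, and the 6 inputs are not used here. By the series' own design line hrp36 and hrp48 were knocked down, and LacZ, a bacterial gene that flies lack, names the control cells. How the knockdown was done and how far it went were not analysed here. Nothing in the labels says whether the 2 libraries of a group came from separate cultures, so p-values measure only the spread between libraries, which may be technical.

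An R-loop is a DNA-RNA hybrid with the other DNA strand left single. The antibody S9.6 binds such hybrids, and RNase H digests the RNA within them, so a hybrid signal is one that falls after RNase H. hrp36 and hrp48 are heterogeneous nuclear ribonucleoproteins, which coat new transcripts and act in splicing and RNA packaging. In male flies the single X is transcribed at a raised rate through the dosage compensation complex, which also acts on the X in the male-derived S2 line. Euchromatic arms also carry scattered transposon copies, to which short reads are hard to assign uniquely.

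Each table gives, for each region, 6 group means on a log2 scale, a base mean, which is the average normalized signal over the libraries, and the authors' shrunken log2 fold change of RNH+ over RNH- in the cell group the table is named for. "Called lower" and "called higher" mean an adjusted p under 0.05 in that test, so lower means less signal after RNase H. The tables hold no value per library, so whether single libraries overlap cannot be described. Each list is named for its own cell group, and its regions may be chosen for high RNH- signal in that group. Levels may differ between tables for that reason as well. Copy number of the X was not measured in the values used here, and its part in any difference of level or density from the autosomes was not tested.

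As a share of each list, X regions were called lower after RNase H most often in the hrp36 table and called higher most often in the hrp48 table, while the longer LacZ list had small shares in both directions. In the LacZ table, 39 X regions were called lower and 18 higher. These are 7.01% and 3.24% of the 556, against 9.79% and 4.88% of all LacZ-table regions, so both X shares lay near the background of the table. Of the 93 hrp36-table X regions 29, or 31.2%, were called lower and 1 was called higher, against 44.9% and 5.34% of all listed regions. Of the 181 hrp48-table X regions 2, or 1.10%, were called lower and 37, or 20.4%, were called higher, against 44.6% and 5.71% of all listed regions. The whole tables also hold repeat-rich and unplaced sequence, so the arms 2L, 3L and 3R are the nearer comparison for the X.

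Beside those autosomal arms the X was close to average in all 3 cell groups. The median log2 fold change of X regions in the authors' deposited tables was -0.11 in LacZ, -0.63 in hrp36 and 0.26 in hrp48. Over 2L, 3L and 3R together the medians in the authors' deposited tables were -0.09, -0.61 and 0.23, and the differences are small beside a median standard error at single X regions of 0.33 to 0.34. The autosomal shares called lower were 8.39% in LacZ, 34.0% in hrp36 and 4.02% in hrp48. The share called higher in the hrp48 table was 13.0% on 2L, 16.4% on 3L and 15.1% on 3R, each below the 20.4% of the X. These are shares of regions and not of replicates, and no test was made between arms.

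**Figure D1:**
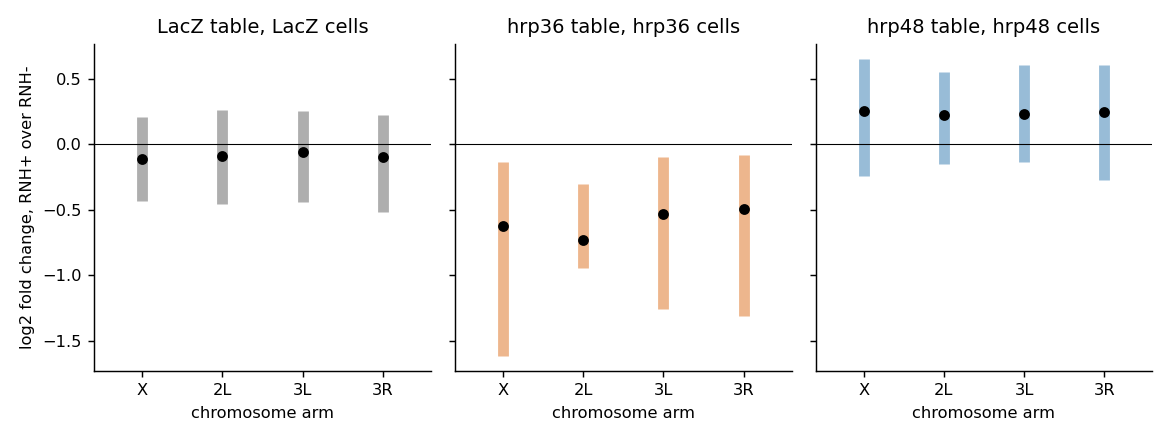
Authors' log2 fold change of RNH+ over RNH- for regions of X, 2L, 3L and 3R in each of the 3 tables; black points are medians and coloured bars run from the lower to the upper quartile over regions. The X median lies at -0.11, -0.63 and 0.26, inside the quartile bars of each of the 3 autosomal arms.

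The balance of falls and rises among the calls moved with the adjustment and with where 0 was placed. With the fold changes of each table centred on the median of 2L, 3L and 3R, and a Wald test from the authors' standard errors adjusted over the whole table, the X counts became 14 lower and 13 higher in LacZ. These are 2.52% and 2.34% of the 556, against a background on that scale of 5.02% lower and 3.67% higher. In hrp36 the centred counts were 23 lower and 11 higher, or 24.7% and 11.8% of the 93, against a background of 24.8% and 17.8%. In hrp48 they were 23 lower and 25 higher, or 12.7% and 13.8% of the 181, against 59.2% and 3.61%. In LacZ 68.4% of the authors' X calls were lower, 56.7% with the Wald test without centring and 51.9% with centring. The authors' own p-values, adjusted over the listed regions only, gave the same 17 lower and 13 higher as the uncentred Wald test. Most of the move in LacZ thus came with the adjustment. In hrp36 the same shares were 96.7%, 94.6% and 67.6%, and in hrp48 they were 5.13%, 14.6% and 47.9%, so in these most of the move came with centring. On the centred scale falls were still the larger group of X calls in hrp36, at a share near the background. The LacZ and hrp48 counts were nearly even, though the hrp48 background was far from even.

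X regions were less densely packed than those of 2L and 3L in the LacZ table, at 26.0 regions per Mb of the span they covered, against 33.4 on 2L, 31.6 on 3L and 27.8 on 3R. The hrp48 table had 8.58 per Mb on X, against 11.4, 10.4 and 6.79 on the same arms. In the hrp36 table the X had 4.35 per Mb, above 3L at 3.45 and 3R at 2.81 and below 2L at 6.70. The 2L value includes closely spaced regions: the median gap between neighbours there was 3134 bases, against 106151 bases on X.

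In the LacZ table the signal level of listed regions hardly differed between X and the autosomal arms. The median of the authors' RNH- means on X was 7.04 in LacZ cells, 6.73 in hrp36 cells and 6.55 in hrp48 cells. The RNH+ medians of the same X regions were 7.07, 6.99 and 7.16. Over 2L, 3L and 3R the corresponding medians were 6.99, 6.68 and 6.48 for RNH- and 6.97, 7.0 and 7.10 for RNH+. Thus in both chromosome classes the RNH- order was LacZ, hrp36, hrp48 in this list, and the RNH+ medians were nearly level. Per kilobase of region, the log2 LacZ RNH- median was 8.27 on X and 8.22 on the autosomal arms.

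Levels were higher in the shorter lists, which overlap the LacZ list in part. In the hrp36 table the X medians of the authors' means were 9.03 RNH- and 8.80 RNH+ in LacZ cells, 9.23 and 8.87 in hrp36 cells, and 8.65 and 8.90 in hrp48 cells. The X medians of the 6 groups in this table lay above those of 2L, 3L and 3R by 0.08 to 0.38. Per kilobase the RNH- gap between X and the pooled arms was wider. The RNH- medians were 9.18 on X against 8.53 in LacZ cells, 9.40 against 8.98 in hrp36 cells and 9.06 against 8.18 in hrp48 cells. On 3L alone they were 9.08, 9.31 and 8.77, nearer to X than the pooled values. In the hrp48 table the X medians were 7.56 and 7.66 in LacZ cells, 7.36 and 7.63 in hrp36 cells, and 7.10 and 7.71 in hrp48 cells. They lay above the pooled autosomal medians by 0.07 to 0.19. The RNH- medians of 2L alone were above those of X there, at 7.60, 7.65 and 7.29 in LacZ, hrp36 and hrp48 cells. Of the hrp36-table X regions 87.1% overlapped a LacZ-table region by at least 1 base, while 16.2% of the LacZ-table X regions overlapped an hrp36-table region. For hrp48 the shares were 95.03% of its X regions and 31.1% of the LacZ-table X regions, so both knockdown lists on the X lay largely inside the LacZ list. The autosomal shares were close to these, at 86.7% and 15.5% for hrp36 and 93.4% and 28.3% for hrp48.

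The arm was divided into 5 equal stretches of 4.3 Mb. Stretch 1, at the telomeric end, and stretch 4 held the most X regions in the LacZ and hrp48 tables, while in the hrp36 table stretch 1 alone stood out. From the telomere inward the stretches held 172, 72, 44, 160 and 108 LacZ-table regions. They held 34, 14, 17, 14 and 14 hrp36-table regions and 49, 23, 19, 52 and 38 hrp48-table regions. The median response hardly changed along the arm in LacZ, where the 5 medians in the authors' deposited table ran from -0.13 to -0.11. In hrp36 cells each stretch had a negative median, from -0.88 in stretch 3 to -0.47 in stretch 2, in the authors' deposited table. In hrp48 cells stretch 3 stood apart with a median of -0.27, and the other 4 ran from 0.21 to 0.41 in the authors' deposited table. It was the thinnest in the LacZ and hrp48 tables and held 4 regions over 3000 bases in each of the 3 lists.

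**Figure D2:**
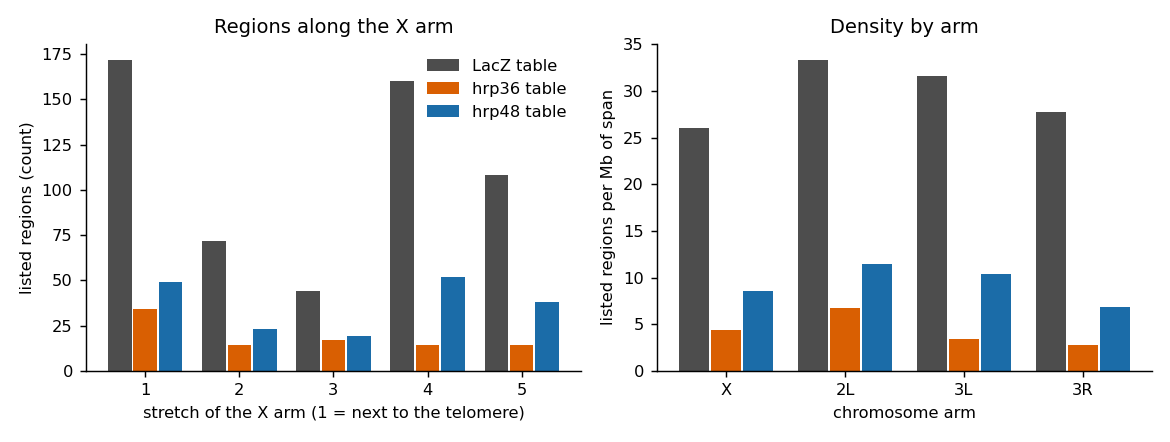
Left, number of listed X regions in 5 stretches of 4.3 Mb from the telomere inward, for each table; right, listed regions per Mb of span for X, 2L, 3L and 3R. Stretches 1 and 4 hold 172 and 160 LacZ-table regions, and X has 26.0 LacZ-table regions per Mb against 27.8 to 33.4 on the autosomal arms.

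A single 1-Mb window, from 3 to 4 Mb, held 101 LacZ-table X regions, 18.2% of them, where the median over the 21 full windows was 19. It also held 14 hrp36-table regions (15.1%) and 21 hrp48-table regions (11.6%). The thinnest LacZ-table window held 3. Within that window lay both of the largest runs of LacZ-table regions whose gaps were under 10 kb. One, chrX:3256363-3315200, had 24 regions over 58.8 kb and 0 of the 24 were called in the DESeq2 test of the authors' deposited table, where 1 was lower at an unadjusted p under 0.05. The other, chrX:3383410-3456584, had 20 regions over 73.2 kb, with 1 called lower and 3 called higher in the authors' deposited table. Of all LacZ-table regions 9.79% were called lower and 4.88% higher, and the small counts of these runs were not tested against those shares.

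In hrp36 cells the X regions called lower after RNase H were mostly long. This split was chosen after the values had been seen. Of the 18 hrp36-table X regions over 3000 bases, 16 were called lower and none higher, with a median log2 fold change of -1.78 in the authors' deposited table and a median standard error of 0.45. Of the 52 up to 1000 bases, 5 were called lower and 1 higher. On 2L, 3L and 3R 25 of 149 regions of that length were called lower and 9 higher. In the whole hrp36 table the upper quartile of length was 737 bases and 44.9% of regions were called lower. Falls were thus common in a list of mostly short regions. Whether the split by length holds beyond these arms was not tested. The X regions called lower in this table had a median length of 3657 bases, against 610 bases for those not called, and a median base mean of 4993, against 355. Length and level rose together, so their parts cannot be told apart here.

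The same long X regions were not called in the other tables. The LacZ table had 17 X regions over 3000 bases, 0 of them called in the authors' DESeq2 test and 4 lower at an unadjusted p under 0.05, with a median log2 fold change of -0.56 in the authors' deposited table. The hrp48 table also had 17, 0 of them called in the DESeq2 test and 2 lower at an unadjusted p under 0.05, with a median of -0.81 in the authors' deposited table. All the long regions in the LacZ table were below 0, and the hrp48 list held 1 that was not, at 0.04 in the authors' deposited table. On 2L, 3L and 3R 46 of 75 hrp36-table regions over 3000 bases were called lower, with a median of -1.64 in the authors' deposited table. Long regions thus fell on the autosomal arms as well.

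**Figure D3:**
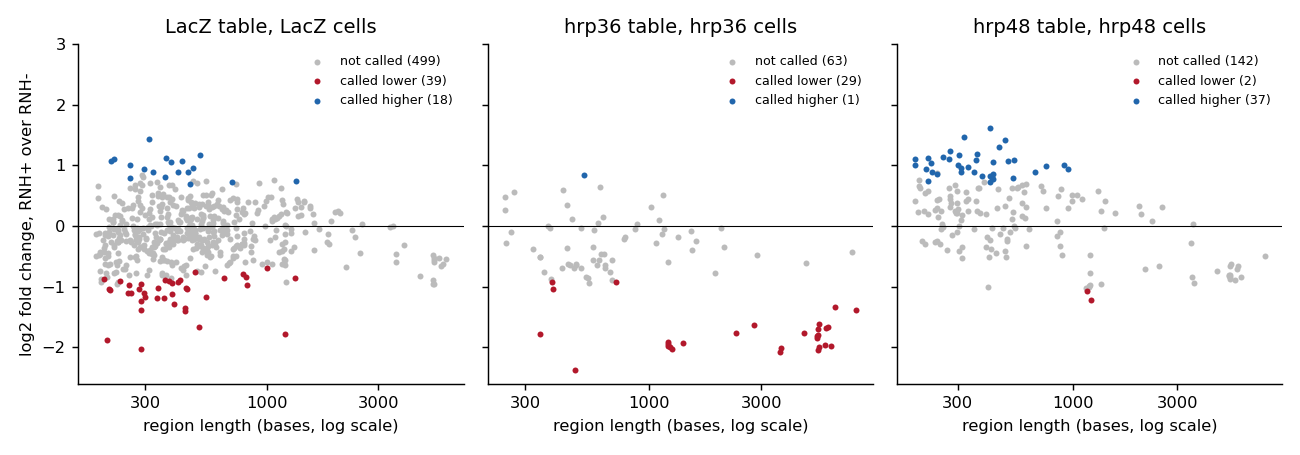
Authors' log2 fold change of RNH+ over RNH- against region length (log axis) for the X regions of each table; red points were called lower, blue points higher and grey points not called. The red points of the hrp36 table reach -2.37 and include 16 of its 18 regions over 3000 bases, while the blue points of the hrp48 table are all at or below 950 bases.

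Across X regions the Spearman correlation of length with log2 fold change was -0.45 over the 93 hrp36-table regions, -0.42 over the 181 hrp48-table regions and 0.07 over the 556 LacZ-table regions. These describe regions of the same libraries, which share depth and base composition. With base mean in place of length the values were -0.42, -0.25 and 0.31. In LacZ cells the called falls were thus at faint X regions, with a median base mean of 78.7. The called rises had 154 and the regions not called 128. Only 2 of the 39 falls had a base mean no lower than the LacZ table's median. Their median length of 381 bases was near the 379.5 of the called rises, and regions not called had 464.

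The group means of the long X regions show on which side of the ratio the hrp36 cells differed. At the 18 hrp36-table regions over 3000 bases the median of the authors' RNH- means was 12.94 (LacZ), 13.80 (hrp36) and 12.82 (hrp48). The RNH+ medians were 12.24, 11.97 and 11.93. The hrp36 RNH- mean was above the LacZ RNH- mean at 18 of 18, by a median of 0.84 on the log2 scale, or 1.79-fold, with a range of 1.23-fold to 2.31-fold. The RNH+ mean of hrp36 cells was below that of LacZ cells at all 18, with a median difference of -0.23. The hrp36 response at these regions therefore held a higher level before RNase H together with a slightly lower level after it. Long regions of 2L, 3L and 3R had the same trait. At the 50 of them listed in all 3 tables the hrp36 RNH- mean was above that of LacZ cells at 50, by a median of 0.79. The RNH+ mean was above it at 0 of the 50, with a median difference of -0.23.

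The other lists show the same places again, since each of their long X regions overlaps a long hrp36-list region. Over the 17 long X regions of the LacZ list the median difference of hrp36 from LacZ RNH- means was 0.87, above 0 at 17 of 17. Over the 17 of the hrp48 list it was 0.86, also above 0 at 17 of 17. At LacZ-list regions over 3000 bases on 2L, 3L and 3R the median was 0.79, above 0 at 53 of 56. Group means carry no error here, so these differences were not tested. At X regions up to 1000 bases the direction turned with the list. The median difference there was -0.36 in the LacZ list and -0.26 in the hrp48 list, but 0.24 in the hrp36 list, above 0 at 44 of 52, and 0.15 at the 27 listed in all 3 tables.

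**Figure D4:**
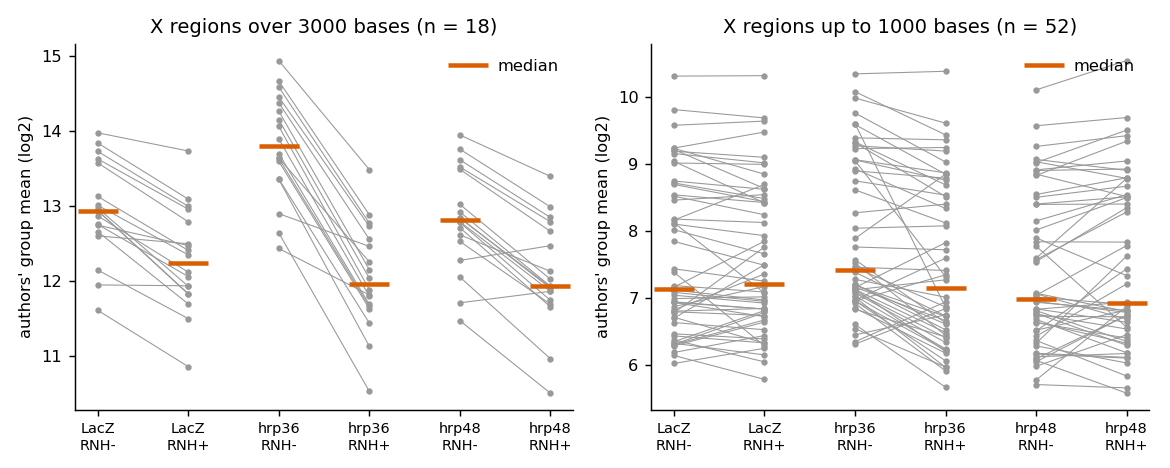
Authors' group means (log2) in LacZ, hrp36 and hrp48 cells without (RNH-) and after RNase H (RNH+) at the hrp36-table X regions over 3000 bases (left, n = 18) and up to 1000 bases (right, n = 52); each grey line is 1 region in 1 cell group and orange bars are medians. In the long regions the hrp36 RNH- median of 13.80 stands above 12.94 in LacZ and 12.82 in hrp48 cells.

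Among long X regions, hrp36 cells showed their largest fall at chrX:19927372-19930988, which is 3617 bases long. Its authors' means were 12.15 RNH- and 11.50 RNH+ in LacZ cells, 13.36 and 11.14 in hrp36 cells, and 12.06 and 10.97 in hrp48 cells. The log2 fold change in hrp36 cells was -2.07 (SE 0.49, adjusted p 0.000256 per the authors' deposited table). Its hrp36 RNH- mean was the highest of the 6 and its hrp48 RNH+ mean the lowest.

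At chrX:4051957-4057194, of 5238 bases, the authors' means were 12.87 and 12.12 in LacZ cells, 14.07 and 11.89 in hrp36 cells, and 12.79 and 11.75 in hrp48 cells, in each case RNH- before RNH+. The log2 fold change in hrp36 cells was -2.04 (SE 0.50, adjusted p 0.000461 per the authors' deposited table). At chrX:18648397-18652053, of 3657 bases, the means were 11.62 and 10.86, 12.65 and 10.54, and 11.48 and 10.51 in the same order. Its log2 fold change was -2.002 (SE 0.46, adjusted p 0.000155 per the authors' deposited table). Both regions had the same order of levels, with hrp36 RNH- highest and the RNH- levels of LacZ and hrp48 cells next to each other.

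The brightest X region was chrX:3647480-3655025, of 7546 bases, with a base mean of 17751. Its means were 13.98 RNH- and 13.74 RNH+ in LacZ cells, 14.94 and 13.49 in hrp36 cells, and 13.95 and 13.40 in hrp48 cells. It was called lower in the hrp36 table at -1.38 (SE 0.47, adjusted p 0.0151 per the authors' deposited table) and not in the hrp48 table, at -0.49 (adjusted p 0.392 per the authors' deposited table). chrX:6339363-6345105, of 5743 bases and with a base mean of 14185, fell by 1.66 on the log2 scale in the authors' deposited hrp36 table (adjusted p 0.0015). In LacZ cells the overlapping entry stood at -0.63 (adjusted p 0.295 per the authors' deposited table). The brightest X regions thus carried strong signal in all 6 groups, after RNase H too.

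Only 2 of the 18 long regions were not called, and they were picked out here after their values were seen. chrX:2739008-2746319 had means of 12.61 and 12.50 in LacZ cells, 12.90 and 12.47 in hrp36 cells, and 12.28 and 12.48 in hrp48 cells. Its log2 fold change in hrp36 cells was -0.42 in the authors' deposited table. chrX:21405676-21410334, near the proximal end of the arm, stood at -0.62 in the authors' deposited table. The lowest X value in hrp36 cells was at a short region, chrX:11134556-11135041, at -2.37 (SE 0.56) in the authors' deposited table; it was also picked after its value was seen. Its 6 means were 8.12 and 7.07, 9.598 and 6.86, and 7.77 and 6.56, so a fall of this size was not limited to long regions.

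Several bright X regions resembled each other in length and in all 6 means. Regions over 1000 bases were called alike where their lengths lay within 2% and each of the 6 group means within 0.2 on the log2 scale, a rule added after the data had been seen. A total of 15 of the 41 hrp36-table X regions over 1000 bases had such a partner on X, 2L, 3L or 3R. Of these 15, 13 were called lower, and of the 26 without a partner 11 were. On 2L 49 of 74, on 3L 21 of 36 and on 3R 23 of 41 had a partner, each a larger share than the 36.6% on X. Called lower on 2L were 35 of the 49 with a partner and 6 of the 25 without. The same counts were 13 of 21 and 5 of 15 on 3L, and 11 of 23 and 7 of 18 on 3R. In the LacZ table the X share of 31.4% lay between 44.7% on 2L and 26.9% on 3R, beside 31.0% on 3L, and in the hrp48 table the shares were 43.6% on X and 43.9% to 54.4% on the autosomal arms.

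On the X itself the alike regions of the hrp36 table formed 4 groups, each of them called lower throughout. The first held 3 regions of 5180 to 5208 bases, with up to 13 partners on the autosomal arms and RNH- means in hrp36 cells of 13.60 to 13.70. The second held 2 regions of 5244 to 5296 bases, with hrp36 RNH- means of 14.46 to 14.59. The next held 3 regions of 1211 to 1213 bases, and the last held 2 regions of 1235 to 1255 bases. Base means within the last group were 2450 and 2451, at places far apart on the arm. Reads from near-identical copies cannot be told apart by position, and the sources used here do not say how the authors placed such reads, so values of alike regions are not independent of each other.

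Long and short alike regions lay side by side at 4 places on the X. In each a region of 5238 to 5296 bases stood next to one of 1211 to 1255 bases, with 528 to 585 bases between them in the hrp36 table. The long one came first, reading from the telomere, at chrX:4051957-4057194 with chrX:4057750-4058984 and at chrX:10419130-10424399 with chrX:10424928-10426182. The short one came first at chrX:9692574-9693784 with chrX:9694335-9699630 and at chrX:11527474-11528684 with chrX:11529270-11534513. The LacZ and hrp48 tables each held 4 such arrangements as well, with 615 to 630 and 544 to 598 bases between the members. No dm3 annotation was used here, so no gene or element name is given to any of these regions.

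The short members fell as far as the long ones in hrp36 cells. At chrX:10424928-10426182 the authors' means were 11.10 and 10.60 in LacZ cells, 12.33 and 10.18 in hrp36 cells, and 11.21 and 9.98 in hrp48 cells. The log2 fold change in hrp36 cells was -2.02 (SE 0.46, adjusted p 0.000133 per the authors' deposited table). At chrX:4057750-4058984 it was -1.99 (SE 0.46, adjusted p 0.000204 per the authors' deposited table), from hrp36 means of 12.34 and 10.22. In the hrp48 table the first of these places, as chrX:10424974-10426131, was 1 of only 2 X regions called lower, at -1.07 (SE 0.46, adjusted p 0.0497 per the authors' deposited table).

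In LacZ cells the clearest fall among X regions at or above their median base mean was at chrX:17039165-17040354, of 1190 bases. Its authors' means were 8.05 RNH- and 6.15 RNH+ in LacZ cells, 7.65 and 6.61 in hrp36 cells, and 7.71 and 6.42 in hrp48 cells. The log2 fold change in LacZ cells was -1.79 (SE 0.31, adjusted p 2.22e-06 per the authors' deposited table). All 3 cell groups had less signal after RNase H here, and the overlapping hrp48-table region, chrX:17039167-17040382, was called too, at -1.22 (SE 0.31, adjusted p 0.00208 per the authors' deposited table).

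The next falls in LacZ cells by the same rule differed in how the other cell groups behaved. At chrX:11211876-11212164, of 289 bases, the means were 7.97 and 6.51 in LacZ cells, 7.77 and 7.09 in hrp36 cells, and 7.18 and 7.34 in hrp48 cells. Its log2 fold change in LacZ cells was -1.39 (SE 0.28, adjusted p 4.94e-05 per the authors' deposited table). The RNH+ mean of hrp48 cells was above their RNH- mean at this region, in contrast to the other cell groups. chrX:2130856-2131406 and chrX:1855290-1855543 fell by 1.16 and 1.10 on the log2 scale in the authors' deposited table (adjusted p 0.00112 and 0.00157). chrX:14696934-14698254 fell by 0.85 on the log2 scale (adjusted p 0.0183 per the authors' deposited table), a call that was lost with centred fold changes at an adjusted p of 0.0941.

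Among X regions with a base mean no lower than the X median, the 5 largest called rises in LacZ cells were at regions of 312 to 519 bases. At chrX:17860039-17860350 the authors' means were 6.51 and 8.04 in LacZ cells, 6.36 and 6.57 in hrp36 cells, and 6.08 and 7.23 in hrp48 cells. The log2 fold change in LacZ cells was 1.43 (SE 0.37, adjusted p 0.00102 per the authors' deposited table). All 3 cell groups had the higher mean after RNase H, though by only 0.21 in hrp36 cells. The other 4 were chrX:16456363-16456881, chrX:5502071-5502439, chrX:3396611-3397041 and chrX:3385125-3385514, with rises of 1.17, 1.11, 1.07 and 1.05 per the authors' deposited table. The last 2 lie within the dense run of 20 regions described above.

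In hrp48 cells the calls at short X regions were all rises, though most short X regions were not called. All 37 called rises were among the 142 X regions up to 1000 bases, with a median length of 364 bases and a median log2 fold change of 1.01 in the authors' deposited table. On 2L, 3L and 3R 97 of 518 regions of that length were called higher. The largest rise was at chrX:20113759-20114177, where the authors' means were 7.87 and 8.83 in LacZ cells, 7.60 and 8.75 in hrp36 cells, and 7.39 and 9.07 in hrp48 cells. Its log2 fold change in hrp48 cells was 1.61 (SE 0.32, adjusted p 6.38e-05 per the authors' deposited table). The RNH+ mean was above the RNH- mean in each cell group, so the rise was not seen in hrp48 cells alone.

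At chrX:5502076-5502397 the means were 6.91 and 8.13 in LacZ cells, 6.93 and 7.76 in hrp36 cells, and 6.51 and 8.07 in hrp48 cells. The log2 fold change in hrp48 cells was 1.46 (SE 0.30, adjusted p 9.92e-05 per the authors' deposited table). At chrX:1899211-1899701 the means were 7.34 and 7.60, 6.98 and 7.59, and 6.69 and 8.14 in the same order of cell groups. Its rise in hrp48 cells was 1.41 (SE 0.34, adjusted p 0.000813 per the authors' deposited table). In both, hrp48 cells had the lowest RNH- mean of the 3 cell groups. chrX:13178249-13178713 and chrX:5828588-5828956 rose by 1.31 and 1.18 in the authors' deposited table.

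At 7 overlapping places on the X the same direction was called in a pair of tables, and opposite directions were called at 0 places. X regions that were each other's best overlap numbered 171 for LacZ and hrp48, 80 for LacZ and hrp36, and 66 for hrp36 and hrp48. The share of such calls over all matched regions was not computed, so these counts have no background beside them. The LacZ and hrp48 tables, each tested on their own libraries, shared rises at chrX:5502076-5502397, chrX:3389585-3390019 and chrX:5828588-5828956 and the fall at chrX:17039167-17040382. The LacZ and hrp36 tables shared the fall at chrX:17451059-17451453, at -1.02 and -1.03 in the authors' deposited tables. The hrp36 and hrp48 tables shared the fall at chrX:10424974-10426131 and a rise at chrX:3301275-3301817, of 0.85 and 1.09 in the authors' deposited tables. That last place was the only X region called higher in hrp36 cells, with means there of 7.89 RNH- and 8.85 RNH+ (adjusted p 0.0364 per the authors' deposited table).

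Whether the response differed between cell groups was tested at regions that matched between tables, with a Wald statistic from both tables' estimates and standard errors. No X region passed at an adjusted p under 0.05 in any of the 3 comparisons. For hrp36 against LacZ this was 0 of 80 matched X regions, with 14 at an unadjusted p under 0.05, all of them lower in hrp36, and a smallest adjusted p of 0.294. Over all 2165 matched regions 0.0924% passed, and 15.6% had an unadjusted p under 0.05. The median X difference was -0.43, against -0.55 on 2L, 3L and 3R, and after centring both tables the unadjusted p was under 0.05 at 1 of the 80, which was higher in hrp36. The excess of calls in hrp36 cells on the X is therefore not shown to differ from LacZ cells by this test.

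For hrp48 against LacZ 0 of 171 matched X regions passed the Wald test, and 0% of all 3187 matched regions passed. Of the 171, 6 were higher at an unadjusted p under 0.05, and 3.73% of the 3187 reached that p. The median X difference was 0.32, against 0.30 on the autosomal arms. For hrp48 against hrp36 0 of 66 passed the Wald test, and 0% of all 2363 passed. Of the 66, 2 were higher at an unadjusted p under 0.05, and 12.2% of the 2363 reached that p. The median X difference was 0.70, against 0.82. The first and second comparisons share the LacZ libraries, and the standard errors of single differences, with a median of 0.46 to 0.50 on X, exceed the median shift in the comparisons with LacZ.

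By the median over a length class, long X regions differed most between hrp36 and LacZ. All 18 matched X regions over 3000 bases had a lower value in hrp36, with a median difference of -1.07 and a median standard error of the difference of 0.64. Of these, 7 reached an unadjusted p under 0.05 and none an adjusted one. At the 39 matched X regions up to 1000 bases the median difference was -0.25, and 26 of the 39 were below 0. The largest single difference, -1.65, was at a matched X region of up to 500 bases.

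The 64 X regions listed in all 3 tables give the 3 responses at the same places. Their median log2 fold changes in the authors' deposited tables were -0.26 for LacZ, -0.64 for hrp36 and -0.24 for hrp48, and the hrp36 value was the lowest of the 3 at 53 of the 64. In this set 27 were called lower in hrp36 and 1 each in LacZ and hrp48, while 0 were called higher in LacZ, 1 in hrp36 and 3 in hrp48. Of the 204 such regions on 2L, 3L and 3R, 93 were called lower in hrp36, 14 in LacZ and 10 in hrp48. Called higher there were 3 in LacZ, 2 in hrp36 and 11 in hrp48. The hrp36 value was the lowest at 178 of the 204, so the autosomal arms showed the same pattern. At the 16 X regions over 3000 bases the medians were -0.58, -1.80 and -0.81 in the authors' deposited tables, and the hrp36 value was the lowest at each of the 16. At the 27 X regions up to 1000 bases they were -0.12, -0.56 and -0.01. hrp36 cells had the lowest median in both length classes, and the 3 medians lay farther apart in the long one.

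**Figure D5:**
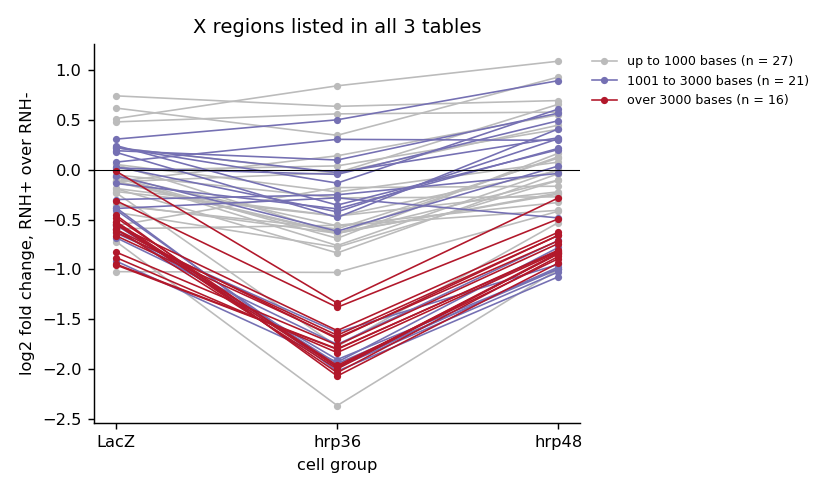
Authors' log2 fold change of RNH+ over RNH- in LacZ, hrp36 and hrp48 cells at the 64 X regions listed in all 3 tables; each line is 1 region, coloured by length class. The 16 regions over 3000 bases (red) have a median of -1.80 in hrp36 cells against -0.58 in LacZ and -0.81 in hrp48 cells.

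At these 64 regions the RNH- mean was higher in hrp36 than in LacZ cells at 53, by a median of 0.49 on the log2 scale. The RNH+ mean was higher in hrp36 cells at only 18, with a median difference of -0.14. In hrp48 cells the RNH- mean was above that of LacZ cells at 9 of the 64, with a median difference of -0.17, and the RNH+ median difference was -0.09. On 2L, 3L and 3R the 204 regions listed in all 3 tables had RNH- median differences from LacZ of 0.45 for hrp36 and -0.27 for hrp48.

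Over whole lists the sign of the hrp36 difference depended on which list was read. The median of hrp36 minus LacZ RNH- means was -0.33 over the 556 X regions of the LacZ list, 0.40 over the 93 of the hrp36 list and -0.17 over the 181 of the hrp48 list. On the autosomal arms the same medians were -0.31, 0.42 and -0.14. For hrp48 minus LacZ the RNH- medians on X were -0.49, -0.18 and -0.33 in the same lists, below 0 in each. In each of the 3 lists the X and the autosomal hrp36 medians had the same sign.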

How the data were processed

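The 3 deposited tables were used, each for 1 cell group, with region positions on dm3. Per the file headers they hold 6 group means (log2 by their values), a base mean (a normalized signal), the authors' shrunken log2 fold change, its standard error, a test statistic (a score), p-value and adjusted p-value. The submitters' processing notes name Bowtie2 2.2.2, MACS 1.4.2 and DESeq2; the sources used here do not give their settings, pooling or treatment of reads with several matches. The file headers write the 2 materials as Un and Tr, read here as RNH- and RNH+. No counts per library were used, so the depth of each library is unknown.

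Regions were assigned to arms by midpoint, with borders of 22 Mb on 2L, 23 Mb on 3L and 0.4 Mb on 3R taken from general knowledge. Computed here were medians by arm, length class and stretch, counts of the authors' calls, and Wald tests between tables at regions that are each other's best overlap, with Benjamini-Hochberg adjustment over all matched regions. The Wald test treats the 2 tables' estimates as independent. It was tried on simulated data whose errors were drawn independently from the same standard errors. That trial could therefore check neither this independence nor the standard errors themselves. Python 3.11.15, NumPy 2.4.6, pandas 2.3.3 and SciPy 1.17.1 were used.

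Regions were named by rule in each table. They were the 5 largest called falls and rises whose base mean was no lower than the X median, the 3 of highest base mean, and those called alike in 2 tables. Members, lists and rules were chosen with earlier results of these data known. Alternatives changed the threshold, minimum fold, base mean filter, adjustment, centring, border, overlap and list of regions.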

Additional observations from a re-analysis of the deposited data

How the results depend on the processing

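No paired analysis was possible because the tables hold group means and no column per library, and for the same reason no library could be left out. Of the counts and medians computed again, 75 stayed within 1.5 times the count or within the median standard error of X regions, 28 moved and 3 changed sign; for the last 31 the cause was not tested unless given here. Settings limited to shorter regions or to the other list were chosen after seeing the data. The LacZ count of 39 lower became 14 at an adjusted p under 0.01, 23 with an absolute log2 fold change of at least 1, 2 when faint regions (base mean below the table's median) were left out, 17 with Benjamini-Hochberg adjustment over listed regions, 17 with the Wald test and 14 when centred. The LacZ count of 18 higher became 9 at 0.01, 35 at 0.1, 7 with the minimum fold and 8 with the base mean filter. The hrp36 count of 29 lower became 13 among regions up to 3000 bases and 5 up to 1000 bases, where fewer regions were tested. The 1 higher call in hrp36 became 0 at 0.01 and with the minimum fold, 2 at 0.1, with the listed-region adjustment and with the Wald test, and 11 when centred. The 2 lower calls in hrp48 became 1 at 0.01, 7 at 0.1, with the listed-region adjustment and with the Wald test, 23 when centred, and 0 up to 1000 bases. The 37 higher calls in hrp48 became 17 at 0.01 and 19 with the minimum fold. The hrp36-table RNH- level of X minus the autosomal arms, 0.08, became -0.46 with the base mean filter and -0.45 over regions listed in all 3 tables. The hrp36 minus LacZ RNH- median in the hrp36 list, 0.40, reversed to -0.0406 when centred and to -0.33 in the LacZ list, and the hrp48 minus LacZ median in the hrp48 list, -0.33, reversed to 0.0852 when centred. The 60 other values of named regions kept their call, and chrX:14696934-14698254 lost it in 3 settings, at adjusted p of 0.0546, 0.054 and 0.0941. Error bounds rest on the authors' standard errors from 2 libraries a group.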
